A study of Rattus norvegicus with 12 samples.

Results

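The oligodendrocyte lineage and myelin genes described here are 32 genes, chosen by symbol from a list of precursor, committed, regulatory and myelin genes, and all 32 were found among the 17268 gene symbols of the count table. RNA was sequenced from the cerebral cortex of adult male Sprague Dawley rats in 12 libraries, with 3 in each of 4 groups. Sham rats had the carotid surgery without a clot. Model rats received a blood clot in the middle cerebral artery, an embolic stroke, and neither treatment. The rt-PA rats had the same stroke and 10 mg/kg of recombinant tissue plasminogen activator, a clot-dissolving enzyme, by tail vein at 6 h. The rt-PA+Acu rats had the stroke, the same rt-PA at 6 h and acupuncture at the Shuigou (GV26) and Neiguan (PC6) points at 2 h. The comparisons ask how the stroke, delayed rt-PA and acupuncture before rt-PA change the cortex. The labels number the libraries of a group but do not say that each is a separate rat, so the p-values measure the spread between these samples.

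Oligodendrocytes wrap axons in myelin, a stack of lipid-rich membrane held together by a few abundant proteins. They arise from precursor cells that carry the receptor PDGFRA and the proteoglycan NG2, encoded by Cspg4, and that remain spread through the adult cortex. A precursor that commits to differentiation passes through a short stage marked by the receptor GPR17, and then switches on the myelin genes under the transcription factors SOX10 and MYRF. Mature oligodendrocytes of the cortex are most numerous near the white matter, and ischemia is known to injure both precursors and myelinating cells.

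All 32 members passed the filter on low counts in each comparison. A library held 11678450 to 13616935 counts in all, and the members together took 0.253% to 1.81% of the counts of a library. Levels are in CPM, the counts scaled to 1000000 per library after TMM normalization over the 12 libraries. Each adjusted p comes from the quasi-likelihood test of edgeR and was adjusted by the Benjamini-Hochberg method over the genes of its comparison. A differentially expressed gene (DEG) is one that changed by more than 1 on the log2 scale with an adjusted p under 0.05. Some libraries stood apart from the others of their group across the members. The second rt-PA library was the highest of its group for 31 of 32 members, the first rt-PA+Acu library was the highest for 32 of 32, and the third rt-PA+Acu library was the lowest for 30. In the Model group the first library was the lowest for 30 members and the third was the highest for 27. The order of the libraries over all genes was not counted, so this order may not be particular to the members. Where leaving out a library changes the call of a member, the library is named beside it or beside the counts. Each share of all genes is of the fit over the 6 libraries of a comparison, and none is given for the other fits.

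**Figure D1:**
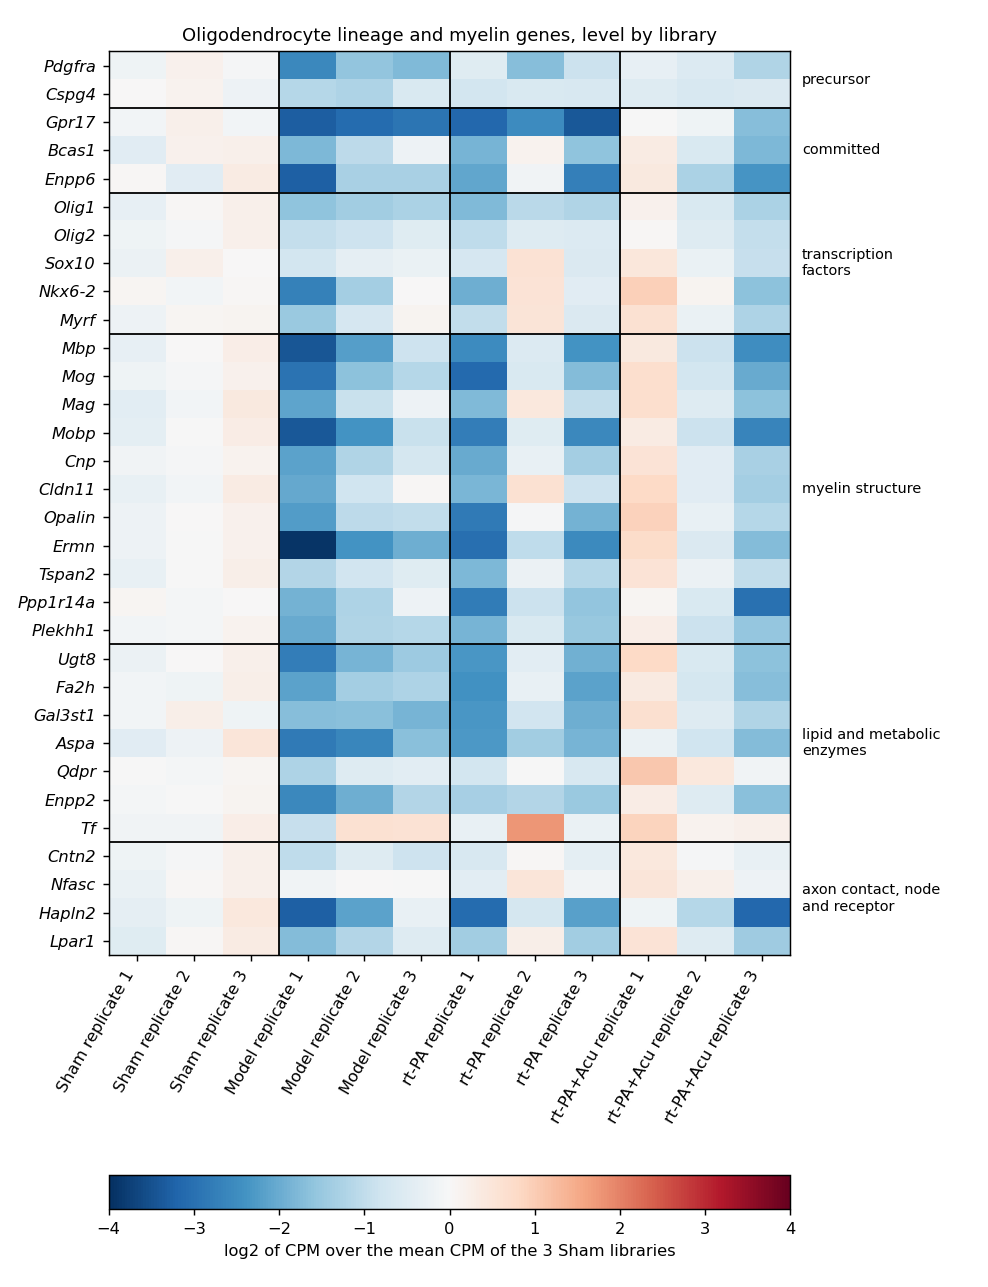
Level of each of the 32 members (rows, by role) in each of the 12 libraries (columns), as the log2 of its CPM over the mean CPM of the 3 Sham libraries; blue is below and red above the Sham mean. The Model and rt-PA columns are mostly blue, with the second rt-PA library paler than its neighbours, and the rt-PA+Acu columns run from red in the first library to blue in the third.

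Most oligodendrocyte genes were lower after the stroke. In Model vs Sham 17 of 32 members were DEGs and all 17 were lower, beside 12% of all genes tested that were DEGs and lower, and 23 members passed the adjusted p with a lower level, beside 26.6% of all genes. The 3 Model libraries lay below all 3 Sham libraries at 24 members, beside 31.6% of all genes. No member was a DEG with a higher level. The median log2 fold change of the members was -1.27, against 0.01 for all genes tested. By role, the DEGs were 1 of 2 precursor genes, 2 of 3 committed genes, 1 of 5 transcription factors, 7 of 11 genes of myelin structure, 5 of 7 lipid and metabolic genes and 1 of 4 genes of axon contact, node and receptor. Leaving out the third Model library raised the member DEGs from 17 to 25, and 7 further members then passed the adjusted p with a lower level, Bcas1, Nkx6-2, Myrf, Mag, Cldn11, Ppp1r14a and Hapln2. In 1 fit over all 12 libraries the count was 11, and 9 members no longer passed the adjusted p, Enpp6, Sox10, Mbp, Mobp, Cnp, Opalin, Tspan2, Qdpr and Lpar1. In bulk tissue, fewer cells of a type and less RNA per cell cannot be told apart. The striatal neuron markers described below summed to 467 to 1279 CPM in Sham and 250 to 345 in Model. Whether the tissue taken differed between these groups was not tested.

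The rt-PA group had a similar count against Sham. In rt-PA vs Sham 14 of 32 members were DEGs and all were lower (11.6% of all genes), 17 members passed the adjusted p with a lower level (27.3%), and the groups lay apart, with rt-PA lower, at 18 members (31% of all genes). The median log2 fold change of the members was -1.09. Both comparisons use the same 3 Sham libraries, so their values are not independent of each other. Without the second rt-PA library the count was 22 DEGs, and 12 further members passed the adjusted p, Bcas1, Enpp6, Sox10, Myrf, Mag, Cldn11, Opalin, Tspan2, Fa2h, Qdpr, Cntn2 and Lpar1. The count was 8 without the second Sham, the third Sham or the third rt-PA library. In 1 fit over all 12 libraries it was 7, and Mbp, Mog, Mobp, Cnp, Ppp1r14a, Ugt8 and Hapln2 no longer passed. In rt-PA vs Model 0 of 32 members were DEGs (0% of all genes) by edgeR and 0 by DESeq2. The share of all genes is of the edgeR fit alone, and the paper reported DEGs among all genes here with DESeq2. At an unadjusted p under 0.05, 2 members were higher with rt-PA, Pdgfra and Cntn2, beside 5.19% of all genes.

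With acupuncture before rt-PA, 1 of 32 members, Gpr17, was a DEG against rt-PA alone, with a higher level, beside 7.17% of all genes that were DEGs and higher. It and Qdpr, an enzyme that regenerates tetrahydrobiopterin, were the 2 members that passed the adjusted p with a higher level, beside 17% of all genes. Gpr17 was the 1 member at which all rt-PA+Acu libraries lay above all rt-PA libraries, beside 24.6% of all genes. By each of these 3 counts the members had a smaller share than all genes tested. The median log2 fold change of the members was 0.76, against -0.003 for all genes tested. The member median was 0.08 without the first rt-PA+Acu library. Without the third rt-PA+Acu library there were 7 member DEGs, and Olig1, Ermn, Gal3st1, Aspa and Enpp2 then passed the adjusted p. The shares of all genes above are of the pairwise fit and cannot be set beside this count or those of the other fits. Without the second rt-PA library there were 4, and Opalin and Ermn passed. In 1 fit over all 12 libraries there were 3, and Olig1, Ermn and Gal3st1 passed. In rt-PA+Acu vs Sham 0 of 32 members were DEGs by edgeR (1.14% of all genes were DEGs and lower) and 0 by DESeq2. One member passed the adjusted p with a lower level, Cspg4, beside 3.4% of all genes, and 2 members were lower at an unadjusted p under 0.05, Cspg4 and Pdgfra, beside 12.9% of all genes.

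**Figure D2:**
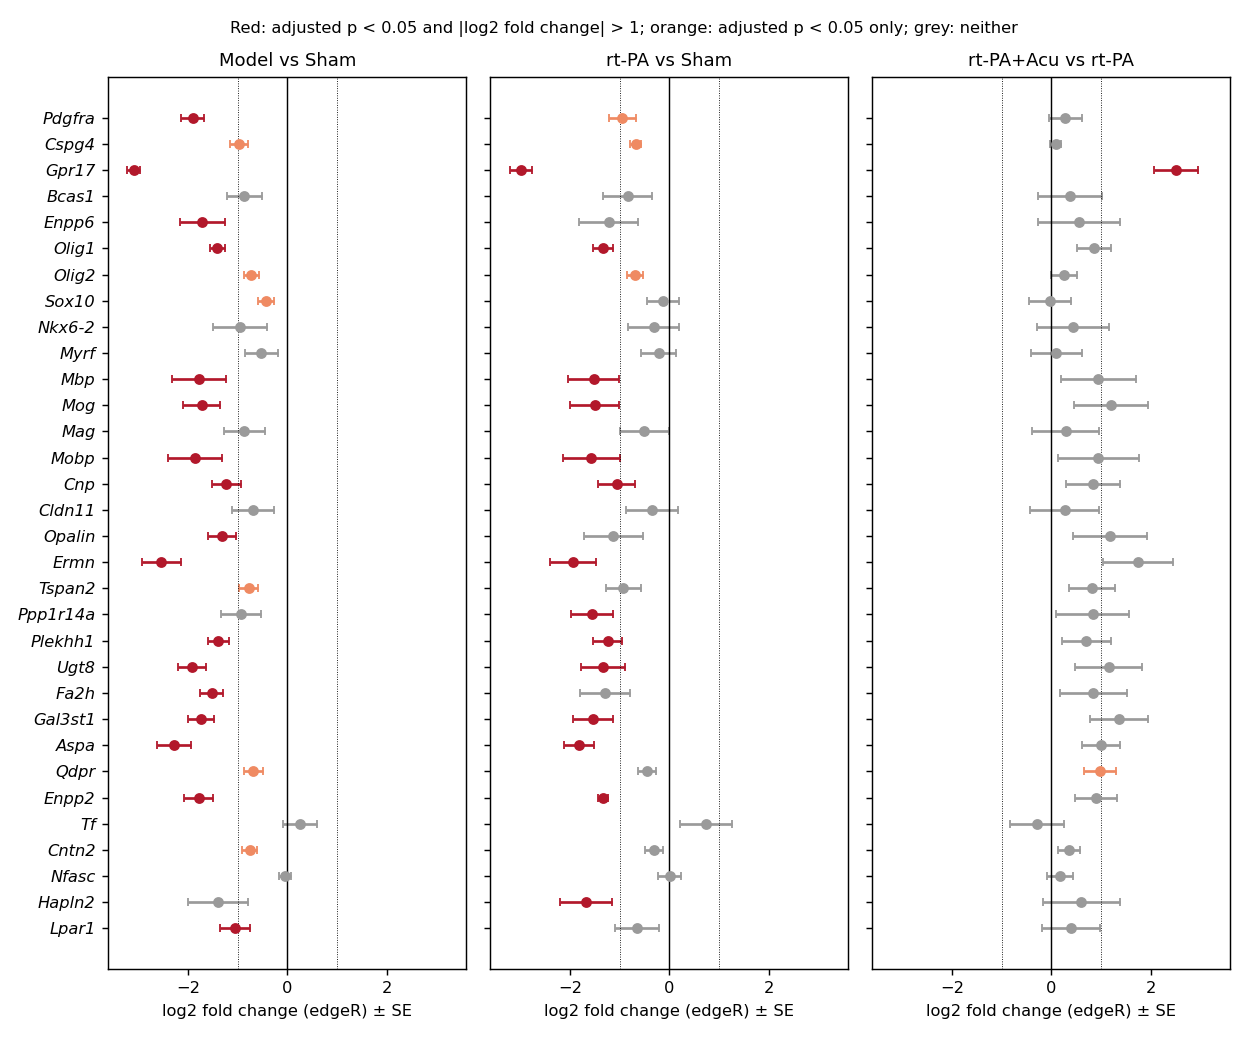
Log2 fold change (x axis, with its SE) of each of the 32 members (y axis) in Model vs Sham, rt-PA vs Sham and rt-PA+Acu against rt-PA; red points are DEGs, orange points passed the adjusted p only, and dotted lines mark a log2 fold change of 1 in each direction. Of the members, 17, 14 and 1 are red in the 3 panels, and Gpr17 lies farthest from 0 in each of them.

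Pdgfra encodes the receptor through which platelet-derived growth factor keeps precursors dividing. Its level was 151, 193 and 166 CPM in the Sham libraries, 28.7, 57.6 and 49.8 in Model, 122, 52.0 and 94.5 with rt-PA, and 136, 117 and 74.1 with rt-PA+Acu. All 9 stroke libraries lay below the Sham libraries, and the Model group had the lowest mean. In Model vs Sham the log2 fold change of Pdgfra was -1.90 ± 0.23 (SE, n = 3 per group; edgeR, adjusted p = 2.87e-04), and it was -0.95 ± 0.27 in rt-PA vs Sham (adjusted p = 0.0179). In rt-PA vs Model the log2 fold change was 0.98 ± 0.34 (edgeR, adjusted p = 0.419). Against Sham, rt-PA+Acu gave -0.65 ± 0.21 (edgeR, adjusted p = 0.113), a difference that did not pass although the groups did not overlap. With DESeq2 in place of edgeR this difference passed (adjusted p = 0.035), under the fold threshold of a DEG. The rt-PA call was lost without the second Sham library (edgeR, adjusted p = 0.0596). Fibroblasts also make Pdgfra, and the summed level of 11 fibroblast and meninges markers was 681, 169 and 552 CPM in the rt-PA libraries, in the same order as Pdgfra. The order also matched in Sham, at 165, 598 and 469 CPM, and in Model, at 58.2, 222 and 115, but not in rt-PA+Acu, at 574, 207 and 239. Whether these cells took part in the Pdgfra values was not tested.

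Cspg4, the gene of the NG2 proteoglycan, behaved unlike the myelin genes in its spread. It stood at 47.4, 51.8 and 41.0 CPM in Sham, 21.0, 19.7 and 30.5 in Model, 28.1, 30.4 and 30.2 with rt-PA, and 32.9, 30.2 and 31.4 with rt-PA+Acu. The highest rt-PA and rt-PA+Acu libraries were 1.08 and 1.09 times the lowest, the smallest ratio of any member in those groups. Cspg4 fell against Sham by 0.97 ± 0.18 on the log2 scale in Model (edgeR, adjusted p = 2.22e-03), by 0.68 ± 0.11 in rt-PA (adjusted p = 1.64e-03) and by 0.57 ± 0.12 in rt-PA+Acu (adjusted p = 0.0342). The last of these 3 calls was lost without any 1 Sham library or the second rt-PA+Acu library, with an adjusted p of up to 0.161 (edgeR), and also in 1 fit over all 12 libraries and when libraries were scaled by their size alone. Between rt-PA+Acu and rt-PA the log2 fold change was 0.09 ± 0.11 (adjusted p = 0.558), and it was -0.01 with scaling by library size. Pericytes also carry NG2, and 11 mural cell markers summed to 317 to 347 CPM in Sham, 169 to 213 in Model, 233 to 303 with rt-PA and 172 to 189 with rt-PA+Acu. Their part in the Cspg4 values was not tested.

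Gpr17 encodes the receptor of the committed stage and had the largest log2 fold change of the members in Model vs Sham and rt-PA vs Sham, and again in rt-PA+Acu against rt-PA. It was counted at 130.4, 162 and 129 CPM in Sham, 14.3, 16.5 and 18.4 in Model, 16.0, 24.4 and 13.3 with rt-PA, and 139.9, 124 and 43.1 with rt-PA+Acu. The Model mean was 11.7% of the Sham mean and the rt-PA mean 12.8%, and no library of these groups came near the Sham range. With acupuncture 1 library lay within the Sham range, 1 just below it, and the third between Sham and rt-PA. Its log2 fold change in Model vs Sham was -3.09 ± 0.14 (edgeR, adjusted p = 4.82e-06), against -2.99 ± 0.22 in rt-PA vs Sham (adjusted p = 3.8e-05) and 0.13 ± 0.24 in rt-PA vs Model (adjusted p = 0.9). In rt-PA+Acu against rt-PA it was 2.51 ± 0.44 (edgeR, adjusted p = 0.00614), and over the 13 alternatives it ranged from 2.22 to 2.88 with an adjusted p of at most 0.0279. Against Sham, rt-PA+Acu gave -0.46 ± 0.36 (edgeR, adjusted p = 0.475).

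The other committed genes had wider groups. Bcas1, a protein of newly myelinating cells, stood at 213, 329.6 and 341 CPM in Sham, 85.2, 141 and 255 in Model, 80.9, 321 and 95.8 with rt-PA, and 372, 191 and 84.3 with rt-PA+Acu. Sham overlapped each of the other groups, and Bcas1 did not pass in Model vs Sham (edgeR, log2 fold change -0.87 ± 0.35, adjusted p = 0.0681) or the other pairwise fits. It became a lower DEG in Model vs Sham without the third Model library (log2 fold change -1.36, edgeR, adjusted p = 0.00248) and in rt-PA vs Sham without the second rt-PA library (-1.74, adjusted p = 3.52e-04). Enpp6, a choline-specific phosphodiesterase of newly formed oligodendrocytes, was low, at 6.36 to 11.0 CPM in Sham, 0.916 to 3.55 in Model, 1.33 to 7.96 with rt-PA and 1.72 to 11.4 with rt-PA+Acu. Enpp6 changed in Model vs Sham, with a log2 fold change of -1.71 ± 0.45 (edgeR, adjusted p = 0.0127) and gave -1.22 ± 0.59 in rt-PA vs Sham (adjusted p = 0.115). The Model call was lost without the third Sham library.

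**Figure D3:**
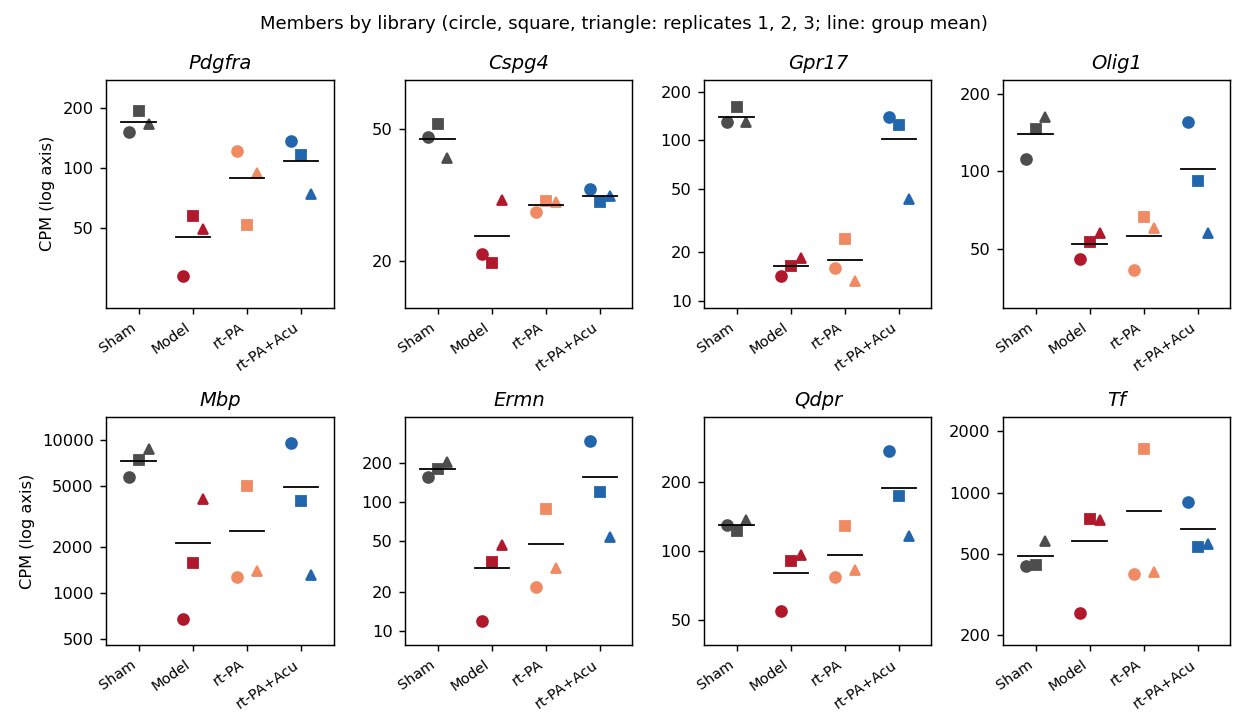
CPM (y axis, log scale) of 8 members in the 3 libraries of each group; circles, squares and triangles are replicates 1, 2 and 3 and the line is the group mean. Gpr17 separates Model and rt-PA, at 13.3 to 24.4 CPM, from Sham at 129 CPM or more, while Mbp, Ermn and Qdpr spread widely within rt-PA+Acu, Cspg4 hardly does, and Tf shows overlapping groups.

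The transcription factors moved less than Gpr17. Olig1, a basic helix-loop-helix factor of the lineage, was at 112, 145 and 162 CPM in Sham, 45.9, 53.5 and 58.1 in Model, 41.5, 66.6 and 60.5 with rt-PA, and 156, 92.0 and 58.0 with rt-PA+Acu. It fell by 1.40 ± 0.15 on the log2 scale in Model vs Sham (edgeR, adjusted p = 1.73e-04) and by 1.33 ± 0.20 in rt-PA vs Sham (adjusted p = 9.76e-04). In rt-PA+Acu against rt-PA the log2 fold change was 0.86 ± 0.34 (edgeR, adjusted p = 0.0904), from 0.42 without the first to 1.15 without the third rt-PA+Acu library (adjusted p of 0.281 and 0.0156). Olig2, which marks precursors and mature cells alike, stood at 37.8, 40.7 and 49.0 CPM in Sham, 22.1, 24.2 and 30.7 in Model, 21.2, 29.7 and 29.1 with rt-PA, and 44.4, 29.5 and 21.9 with rt-PA+Acu. It fell by 0.72 ± 0.16 in Model vs Sham (edgeR, adjusted p = 4.91e-03) and by 0.69 ± 0.16 in rt-PA vs Sham (adjusted p = 8.04e-03), and neither change reached the fold threshold of a DEG.

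Sox10, which keeps the lineage identity and drives myelin genes, gave 45.7 to 62.6 CPM in Sham, 32.5 to 45.5 in Model, 33.9 to 80.7 with rt-PA and 28.3 to 74.7 with rt-PA+Acu. It passed the adjusted p in Model vs Sham, where it fell by 0.43 ± 0.16 on the log2 scale (edgeR, adjusted p = 0.0473), a call that was lost without the second or the third Sham or the first or the second Model library, with scaling by library size and in 1 fit over all 12 libraries (adjusted p of up to 0.333). Myrf, the membrane-bound factor that starts the myelin programme, lay at 80.9 to 101 CPM in Sham, 33.5 to 102 in Model, 46.9 to 136 with rt-PA and 39.8 to 143 with rt-PA+Acu. Nkx6-2, a homeobox factor of late differentiation, lay at 5.97 to 6.87 CPM in Sham, 0.992 to 6.53 in Model, 1.66 to 9.40 with rt-PA and 2.10 to 12.6 with rt-PA+Acu. Myrf and Nkx6-2 passed in none of the pairwise fits over 6 libraries, with a lowest adjusted p of 0.211 and 0.168 by edgeR, both in Model vs Sham. Without the third Model library both were lower DEGs there, Myrf at -1.01 (edgeR, adjusted p = 0.00499) and Nkx6-2 at -1.88 (adjusted p = 0.00396), and without the second rt-PA library Myrf passed in rt-PA vs Sham (adjusted p = 0.00341). For all 3 factors, rt-PA and rt-PA+Acu held libraries on both sides of the Sham range.

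Mbp encodes myelin basic protein, which compacts the membrane stack, and its counts show how the myelin genes varied. They came to 5696, 7310 and 8667 CPM in Sham, 675, 1567 and 4101 in Model, 1261, 4990 and 1382 with rt-PA, and 9460, 3957 and 1300.0 with rt-PA+Acu. Model and rt-PA lay below Sham in each library, whereas rt-PA+Acu held 1 library above all Sham libraries and 2 below. Mbp fell by 1.77 ± 0.54 in Model vs Sham (edgeR, adjusted p = 0.0237) and by 1.52 ± 0.51 in rt-PA vs Sham (adjusted p = 0.035). In rt-PA+Acu against rt-PA its log2 fold change was 0.95 ± 0.76 (edgeR, adjusted p = 0.362), and it ran from 0.05 without the first rt-PA+Acu library to 1.89 without the second rt-PA library. Over the 13 alternatives the adjusted p of the Model call ranged from 3.74e-04 to 0.0847. It was lost without the second Model, the second Sham or the third Sham library and in 1 fit over all 12 libraries. The rt-PA call was lost with DESeq2, in that fit (adjusted p = 0.115) and without any 1 library other than the second rt-PA library.

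Ermn, which encodes the cytoskeletal protein ermin of mature oligodendrocytes, had the largest fall among the genes of myelin structure. Its level was 155, 178 and 202 CPM in Sham, 11.8, 34.2 and 46.4 in Model, 21.8, 88.4 and 30.7 with rt-PA, and 298, 119.4 and 53.2 with rt-PA+Acu. Every Model and rt-PA library lay below every Sham library, while rt-PA+Acu ran from the highest value to one near the Model range. Ermn fell by 2.53 ± 0.40 on the log2 scale in Model vs Sham (edgeR, adjusted p = 0.00102) and by 1.94 ± 0.46 in rt-PA vs Sham (adjusted p = 0.00847). With acupuncture the log2 fold change against rt-PA was 1.74 ± 0.70 (edgeR, adjusted p = 0.0908). It was 0.88 without the first rt-PA+Acu library (edgeR, adjusted p = 0.321), and Ermn passed without the third rt-PA+Acu library (adjusted p = 0.0312), without the second rt-PA library, where the log2 fold change was 2.57, and in 1 fit over all 12 libraries.

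The other genes of myelin structure had the same highest and lowest libraries as Mbp in each group, except Ppp1r14a in Sham. Mobp, a basic protein of compact myelin, stood at 1671, 2188 and 2716 CPM in Sham, 208, 422 and 1186 in Model, 319, 1552 and 368 with rt-PA, and 2772, 1197 and 353 with rt-PA+Acu. Mog, a glycoprotein of the outer myelin surface, stood at 91.0, 98.7 and 116 CPM in Sham, 13.2, 32.4 and 46.6 in Model, 11.8, 66.5 and 30.5 with rt-PA, and 163, 61.4 and 25.3 with rt-PA+Acu. Both passed in Model vs Sham, where Mobp fell by 1.85 ± 0.54 (edgeR, adjusted p = 0.0192) and Mog fell by 1.72 ± 0.36 (adjusted p = 4.4e-03). They also passed in rt-PA vs Sham, where Mobp fell by 1.57 ± 0.58 (edgeR, adjusted p = 0.049) and Mog fell by 1.50 ± 0.50 (adjusted p = 0.0337), and both rt-PA calls were lost with DESeq2 in place of edgeR. Without any 1 Sham library or the third rt-PA library both rt-PA calls were lost as well, that of Mobp also without the first rt-PA library. In Model vs Sham the call of Mobp was lost without the third Sham or the second Model library (edgeR, adjusted p of up to 0.0717).

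Cnp, an enzyme of the cytoplasmic channels of myelin, fell by 1.22 ± 0.30 in Model vs Sham (edgeR, adjusted p = 8.59e-03) and by 1.06 ± 0.38 in rt-PA vs Sham (adjusted p = 0.0438). It missed the fold threshold in Model vs Sham without the first Model library, and its Model call was lost in 1 fit over all 12 libraries, as was its rt-PA call without any 1 library other than the second rt-PA library. Opalin, a membrane protein of mature oligodendrocytes, fell by 1.31 ± 0.28 in Model vs Sham (edgeR, adjusted p = 5e-03), where Sham lay at 88.1 to 113 CPM and Model at 21.3 to 51.3. This call was lost in 1 fit over all 12 libraries (edgeR, adjusted p = 0.103). In rt-PA it spread from 14.2 to 98.1 CPM, the widest ratio of any member in that group at 6.90. Plekhh1 fell by 1.39 ± 0.21 in Model vs Sham (edgeR, adjusted p = 8.66e-04) and by 1.24 ± 0.29 in rt-PA vs Sham (adjusted p = 7.67e-03), where the fold threshold was missed without the first rt-PA library. Tspan2, a tetraspanin, fell by 0.78 ± 0.19 in Model vs Sham (edgeR, adjusted p = 8.28e-03), under the fold threshold. Ppp1r14a, an inhibitor of protein phosphatase 1, was at 5.05 to 5.58 CPM in Sham and 0.763 to 2.94 in rt-PA, where it fell by 1.56 ± 0.43 (edgeR, adjusted p = 0.0154). Mag, the adhesion protein of the inner myelin membrane, and Cldn11, which forms its tight junctions, passed in none of the pairwise fits over 6 libraries. Without the third Model library both were lower DEGs in Model vs Sham, Mag at -1.37 and Cldn11 at -1.27, and without the second rt-PA library both passed in rt-PA vs Sham (adjusted p of 0.00604 and 0.00896). Mag ranged from 190.4 to 337 CPM in Sham and 58.5 to 222 in Model, and Cldn11 from 306 to 464 CPM in Sham and 89.5 to 384 in Model.

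Promoter sequences of 24 of the 32 members were found by symbol in RefSeq (build GRCr8, not the mRatBN7.2 build on which the counts were made), in 26 windows of 250 bases that end before the annotated start of the gene. They were searched on both strands for the letters ACAAAG, the core that SOX factors bind, and CTGGCAC, a form of the MYRF motif. ACAAAG or its complement CTTTGT was in 7 of the 26 windows (26.9%), beside 16.3% of all 33469 windows, and CTGGCAC or GTGCCAG was in 5 (19.2%), beside 3.78%. The letters ACAATG were in 4 (15.4%, beside 11.1%) and CAGCTG, an E-box, in 5 (19.2%, beside 12%). The windows with MYRF letters belonged to Cnp, Hapln2, Mag, Olig2 and Opalin. A match is a run of letters and not a shown binding site. The 3 windows printed here belong to myelin genes described above, and capitals mark each match of ACAAAG or CTGGCAC on either strand, none of which overlap. Mobp holds 8 SOX matches, the most of the 26 windows, while Opalin and Mag hold both kinds. Each is written 5′ to 3′ on the strand of its gene, Mobp from chr8:128746982-128747231 (plus strand), Opalin from chr1:249858191-249858440 (minus strand) and Mag from chr1:95291045-95291294 (minus strand).
Mobp: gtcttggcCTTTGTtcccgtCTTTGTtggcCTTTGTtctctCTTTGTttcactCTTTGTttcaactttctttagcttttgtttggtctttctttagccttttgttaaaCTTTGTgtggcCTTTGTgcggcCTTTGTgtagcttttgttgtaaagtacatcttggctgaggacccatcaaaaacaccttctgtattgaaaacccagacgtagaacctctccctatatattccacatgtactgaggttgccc
Opalin: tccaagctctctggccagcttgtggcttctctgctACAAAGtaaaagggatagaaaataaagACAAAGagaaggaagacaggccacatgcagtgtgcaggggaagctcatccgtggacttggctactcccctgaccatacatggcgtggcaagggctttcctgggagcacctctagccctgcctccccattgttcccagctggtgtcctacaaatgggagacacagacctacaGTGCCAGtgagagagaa
Mag: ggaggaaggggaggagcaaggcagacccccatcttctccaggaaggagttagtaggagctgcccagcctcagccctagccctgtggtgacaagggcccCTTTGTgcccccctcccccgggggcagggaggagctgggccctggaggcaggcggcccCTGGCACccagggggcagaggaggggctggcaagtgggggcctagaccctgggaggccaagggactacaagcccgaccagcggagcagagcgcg

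Of the 7 lipid and metabolic genes, which include Qdpr and the iron carrier Tf, 5 were lower DEGs in Model vs Sham. They were Enpp2 and the enzymes of myelin lipids Aspa, Ugt8, Fa2h and Gal3st1. Aspa, the aspartoacylase that frees acetate for lipid synthesis, was at 36.4, 43.4 and 69.7 CPM in Sham, 7.02, 8.12 and 15.7 in Model, 10.1, 18.9 and 13.8 with rt-PA, and 41.6, 28.9 and 14.8 with rt-PA+Acu. Its Model and rt-PA libraries all lay below its Sham libraries, and 2 of 3 rt-PA+Acu libraries did. Aspa fell by 2.27 ± 0.34 on the log2 scale in Model vs Sham (edgeR, adjusted p = 8.4e-04) and by 1.82 ± 0.30 in rt-PA vs Sham (adjusted p = 1.39e-03). Ugt8, which makes galactosylceramide, stood at 156 to 213 CPM in Sham and 27.4 to 68.3 in Model and fell by 1.92 ± 0.29 (edgeR, adjusted p = 7.9e-04). Fa2h, which hydroxylates the fatty acids of these lipids, stood at 41.5 to 54.7 CPM in Sham and 10.5 to 19.5 in Model and fell by 1.52 ± 0.23 (edgeR, adjusted p = 7.68e-04). Gal3st1, which sulfates galactosylceramide, stood at 5.33 to 7.04 CPM in Sham and 1.65 to 1.86 in Model and fell by 1.73 ± 0.26 (edgeR, adjusted p = 8.13e-04). In rt-PA vs Sham, Ugt8 fell by 1.32 ± 0.44 (edgeR, adjusted p = 0.0349) and Gal3st1 fell by 1.54 ± 0.41 (adjusted p = 0.0132), while Fa2h gave -1.30 ± 0.51 (adjusted p = 0.0603). The rt-PA call of Ugt8 was lost without any 1 library other than the second rt-PA library.

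Enpp2 encodes autotaxin, the secreted enzyme that makes lysophosphatidic acid. It was at 162, 168 and 184 CPM in Sham, 28.7, 44.6 and 75.6 in Model, 67.7, 75.9 and 62.0 with rt-PA, and 210.3, 119.6 and 53.6 with rt-PA+Acu. Its rt-PA libraries lay close together, unlike those of most myelin genes. Enpp2 fell by 1.78 ± 0.29 in Model vs Sham (edgeR, adjusted p = 1.24e-03) and by 1.34 ± 0.10 in rt-PA vs Sham (adjusted p = 4.03e-05), and gave 0.90 ± 0.41 in rt-PA+Acu against rt-PA (adjusted p = 0.131), from 0.34 without the first to 1.27 without the third rt-PA+Acu library, where it passed. Qdpr stood at 129.6, 123 and 137 CPM in Sham, 54.7, 90.2 and 96.4 in Model, 77.2, 128 and 82.5 with rt-PA, and 274, 174 and 117 with rt-PA+Acu. The rt-PA+Acu group overlapped with rt-PA, since the third rt-PA+Acu library lay below the second rt-PA library. Qdpr fell by 0.68 ± 0.19 in Model vs Sham (edgeR, adjusted p = 0.0153) and rose by 0.97 ± 0.32 in rt-PA+Acu against rt-PA, with an adjusted p that rounds to 0.05 and lay just under the threshold. Over the 13 alternatives that adjusted p ranged from 0.00734 to 0.15, and the call was lost without the first or the second rt-PA+Acu library or the first or the third rt-PA library and with scaling by library size. In Model vs Sham the Qdpr call was lost without the third Sham library and in 1 fit over all 12 libraries. In rt-PA+Acu vs Sham, Qdpr passed with a higher level without the third rt-PA+Acu library (edgeR, adjusted p = 0.0403), under the fold threshold.

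Tf, the iron carrier transferrin, was the 1 member with a log2 fold change above 0 in Model vs Sham. It was counted at 437, 443 and 582 CPM in Sham, 256, 744 and 732 in Model, 397, 1642 and 408 with rt-PA, and 899, 540.2 and 560.2 with rt-PA+Acu. All groups overlapped, and the second rt-PA library stood far above the others. Its log2 fold change in Model vs Sham was 0.25 ± 0.35 (edgeR, adjusted p = 0.564), and without the first Model library it was 0.60 and passed (adjusted p = 0.00822). In rt-PA vs Sham it was 0.73 ± 0.52 (edgeR, adjusted p = 0.265), and it turned to -0.28 without the second rt-PA library. Choroid plexus epithelium also makes transferrin and autotaxin, and 11 of its markers summed to 7.32 CPM in the second rt-PA library and to 3.75 to 22.8 CPM over all libraries, with Otx2 at 0 in each. The part of these cells in the Tf and Enpp2 values was not tested.

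The genes of axon contact, node and receptor ranged from -1.39 to -0.05 in their log2 fold change in Model vs Sham. Nfasc, the neurofascin gene, which neurons also use at nodes and axon initial segments, stood at 389, 485 and 539 CPM in Sham, 425, 472 and 461 in Model, 348, 656 and 429 with rt-PA, and 661, 546 and 408 with rt-PA+Acu. It gave -0.05 ± 0.12 in Model vs Sham (edgeR, adjusted p = 0.766) and passed in no comparison. Cntn2, a contactin of the juxtaparanode that some neurons also make, fell by 0.76 ± 0.15 in Model vs Sham (edgeR, adjusted p = 2.9e-03), from 98.6 to 127 CPM in Sham to 55.0 to 77.6 in Model. Lpar1, a receptor for lysophosphatidic acid, fell by 1.04 ± 0.30 in the same comparison (edgeR, adjusted p = 0.0182). It was no longer a DEG without the first Model, the second Model, the second Sham or the third Sham library, with scaling by library size or in 1 fit over all 12 libraries. Hapln2, a link protein of the nodal matrix, ranged from 28.4 to 47.9 CPM in Sham, 3.74 to 29.2 in Model, 4.23 to 22.2 with rt-PA and 4.12 to 31.8 with rt-PA+Acu. It fell by 1.67 ± 0.52 in rt-PA vs Sham (edgeR, adjusted p = 0.0273), a call that was lost without the second Sham, the third Sham or the third rt-PA library, while in Model vs Sham it gave -1.39 ± 0.60 (adjusted p = 0.0821) and passed without the third Model library.

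The members spread more between replicates than all genes did at the median. Some marker lists given below also ranged widely within a group, as those of striatal neurons did in Sham. Most members of a group had the same highest and lowest libraries, so their ratios are not separate observations. The highest Sham library was 1.32 times the lowest at the median member, against 1.20 times at the median of all genes. In Model the median ratio was 2.45 for the members against 1.28 for all genes, in rt-PA 3.19 against 1.27, and in rt-PA+Acu 3.78 against 1.33. The Sham group had 0 members with a ratio over 2, Model had 20, rt-PA had 23 and rt-PA+Acu had 27, where 8.72%, 14.8%, 12.4% and 14.7% of all genes had one. The median member stood at 23.5%, 42.5% and 59.2% of its Sham mean in the 3 Model libraries, at 27.6%, 77.9% and 37.1% in rt-PA, and at 136%, 69.4% and 35.6% in rt-PA+Acu. In the first rt-PA+Acu library 25 of 32 members lay above the highest Sham library, and 30 members of the third library lay below the lowest Sham library. The first rt-PA library lay below the lowest Sham library at 32 of 32 members, whereas the second did so at 18. The share of all genes outside the Sham range in a single library was not counted, so these counts have no background beside them.

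**Figure D4:**
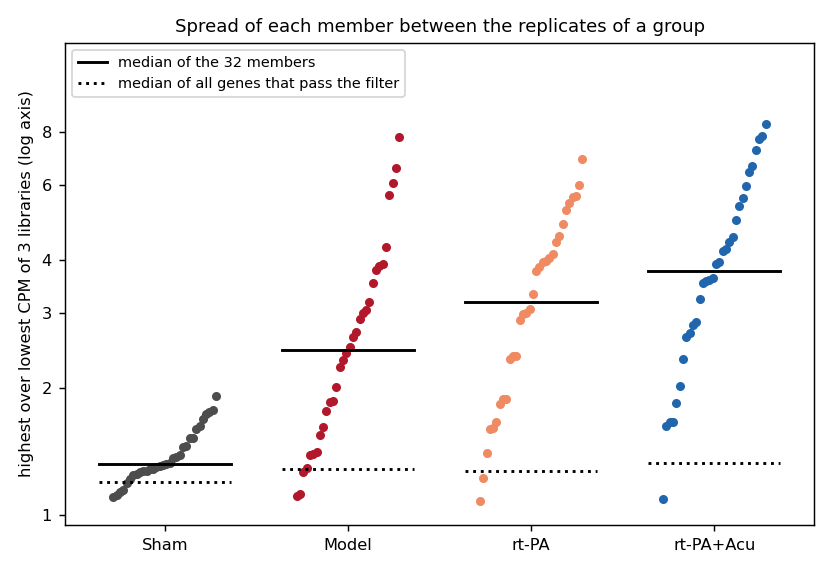
Highest over lowest CPM among the 3 libraries of a group (y axis, log scale) for each of the 32 members, sorted within each group; the solid line is the median of the members and the dotted line that of all genes. The member median is 1.32 for Sham, 2.45 for Model, 3.19 for rt-PA and 3.78 for rt-PA+Acu, while the dotted lines stay between 1.20 and 1.33.

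Ratios within a library, which were chosen after the values were seen and carry no test, were taken for Gpr17, Mbp and Pdgfra. The CPM of Gpr17 over that of Olig2 was 3.45, 3.97 and 2.64 in Sham, 0.647, 0.682 and 0.601 in Model, 0.755, 0.821 and 0.458 with rt-PA, and 3.15, 4.20 and 1.97 with rt-PA+Acu. The 6 Model and rt-PA libraries thus kept a ratio under 1, the second rt-PA library included. Mbp over Olig2 was 151, 179 and 177 in Sham, 30.6, 64.8 and 134 in Model, 59.4, 168 and 47.5 with rt-PA, and 213, 134 and 59.2 with rt-PA+Acu, where each Model library lay below Sham and the second rt-PA library lay within it. Gpr17 over Mbp was 0.0149 to 0.0229 in Sham, 0.00449 to 0.0211 in Model, 0.00489 to 0.0127 with rt-PA and 0.0148 to 0.0332 with rt-PA+Acu, so Sham overlapped Model but not rt-PA. Pdgfra over Olig2 was 3.39 to 4.74 in Sham, at most 2.38 in Model, 1.75 to 5.73 with rt-PA and 3.07 to 3.96 with rt-PA+Acu, and Model alone lay apart from Sham.

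**Figure D5:**
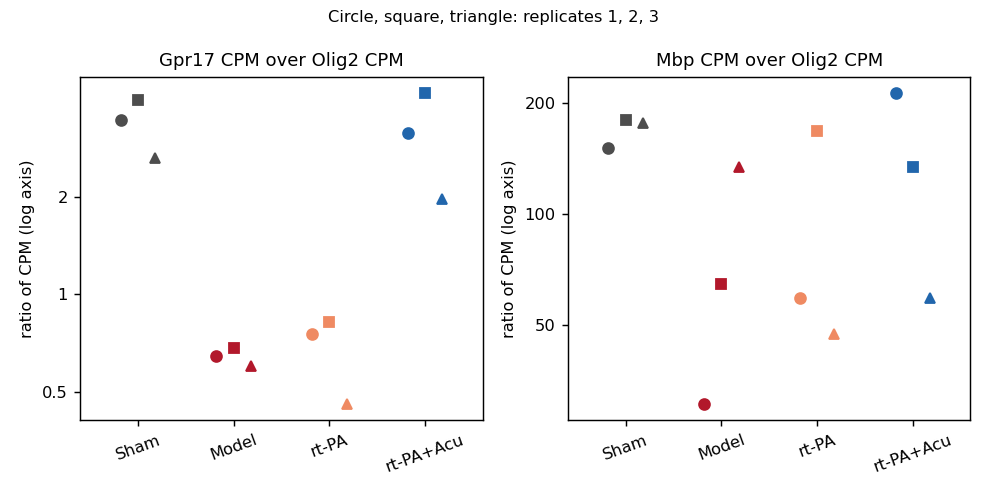
CPM of Gpr17 (left) and of Mbp (right) over the CPM of Olig2 in the same library (y axes, log scale), by group, with circles, squares and triangles for replicates 1, 2 and 3. On the left Model and rt-PA lie at 0.458 to 0.821, apart from Sham and rt-PA+Acu at 1.97 or more, and on the right Model lies below Sham, while rt-PA and rt-PA+Acu overlap with Sham.

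Other genes of the lineage were taken from a wider list of 55 in the table, of which 54 were tested in Model vs Sham. Of these, 28 were lower DEGs (12% of all genes) and 1 was a higher DEG (1215 of all 12884 genes). The adjusted p was passed by 37 with a lower level (26.6% of all genes) and by 5 with a higher level (3519 of all 12884 genes). The lower DEGs were 4 of 9 precursor, 3 of 9 committed and 21 of 36 mature genes. In rt-PA vs Sham 21 of the 54 were lower DEGs (11.6% of all genes) and 2 higher ones (1431 of all 13023 genes). In rt-PA vs Model 0 of 52 were DEGs, with 5 higher at an unadjusted p under 0.05 by edgeR (5.19% of all genes). In rt-PA+Acu against rt-PA 6 of 54 were higher DEGs (7.17% of all genes) and 2 lower ones (1061 of all 12999 genes). In rt-PA+Acu vs Sham 0 of 54 were DEGs, and 7 were lower at an unadjusted p under 0.05 by edgeR, beside 12.9% of all genes. Olig3, which was listed with the precursor genes, had no count in any library.

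The 4 genes of that list with the largest changes in Model vs Sham were Matn4, Gjc3, Kif19 and Anln. Gjc3, a connexin of myelinating glia, stood at 66.6 to 111 CPM in Sham, 12.4 to 20.6 in Model, 13.4 to 34.3 with rt-PA and 27.3 to 156 with rt-PA+Acu, and rose by 1.82 ± 0.60 in rt-PA+Acu against rt-PA (edgeR, adjusted p = 0.0495). Kif19, a kinesin of the committed list, stood at 4.82 to 5.50 CPM in Sham, 0.458 to 1.18 in Model, 0.555 to 1.36 with rt-PA and 3.96 to 8.02 with rt-PA+Acu, and rose by 2.66 ± 0.43 in rt-PA+Acu against rt-PA (edgeR, adjusted p = 4.6e-03). Matn4, a matrilin of precursors, was at 2.51 to 4.11 CPM in Sham, 0.0763 to 0.0846 in Model, 0 to 0.717 with rt-PA and 1.22 to 7.75 with rt-PA+Acu. These levels were low, since 3 counts in a library stood for 0.220 to 0.257 CPM. Matn4 rose by 3.72 ± 0.93 in rt-PA+Acu against rt-PA (edgeR, adjusted p = 0.0198). No alternative fits are given for the genes of this list. Like Gpr17, Kif19 and Matn4 had no overlap between rt-PA+Acu and rt-PA, while the Gjc3 groups overlapped. In that comparison 12 of 54 genes of the wider list lay apart with a higher level, beside 24.6% of all genes. Anln, which encodes the anillin that scaffolds septins in myelin, was at 56.0 to 77.9 CPM in Sham and 8.93 to 15.1 in Model, and gave 1.00 ± 0.61 in rt-PA+Acu against rt-PA (edgeR, adjusted p = 0.235).

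Markers of other cell types were compared as well, and their part in the member values was not tested. Of all genes tested in Model vs Sham, 26.6% passed the adjusted p with a lower level and 3519 of 12884 with a higher level. In rt-PA+Acu against rt-PA 2306 of 12999 genes passed with a lower level and 17% with a higher level. Some of the marker counts that follow were no larger than these shares. In Model vs Sham lower and higher levels that passed the adjusted p were found at 6 and 2 of 12 neuron, 10 and 1 of 12 astrocyte, 6 and 2 of 10 microglia, 1 and 1 of 8 endothelial, 5 and 0 of 11 mural, 3 and 1 of 11 fibroblast and meninges, 0 and 1 of 2 choroid plexus, 9 and 0 of 10 striatal neuron, and 0 and 4 of 7 neutrophil and monocyte markers. In rt-PA+Acu against rt-PA, where Gpr17 rose, lower and higher levels that passed were found at 0 and 6 of 12 neuron, 0 and 11 of 12 astrocyte, 1 and 3 of 10 microglia, 7 and 0 of 8 endothelial, 5 and 2 of 10 mural, 2 and 1 of 11 fibroblast and meninges, 1 and 0 of 3 choroid plexus, 0 and 2 of 9 striatal neuron, and 7 and 0 of 8 neutrophil and monocyte markers. Neuron markers summed to 9109 to 10160 CPM in Sham, 6586 to 7072 in Model, 5301 to 6689 with rt-PA and 6611 to 10260 with rt-PA+Acu, where the third library, also the lowest for 30 members, was the lowest. Astrocyte markers summed to 5756 to 6854 CPM in Sham, 4590 to 6541 in Model, 5065 to 5982 with rt-PA and 6631 to 8044 with rt-PA+Acu, where the third library was the highest. Among microglia, the markers summed to 637 to 794 CPM in Sham and 512 to 603 in Model. Endothelial markers summed to 296 to 327 CPM in Sham, 324 to 571 in Model, 467 to 643 with rt-PA and 187 to 218 with rt-PA+Acu. Fibroblast and meninges markers ranged from 58.2 to 681 CPM over all libraries, and neutrophil and monocyte markers, with Mpo at 0 in each, from 48.8 to 467. The striatal neuron markers, which a cortical sample should hold little of, summed to 467, 1279 and 962 CPM in Sham and to 199 to 378 in the other libraries. Of the marker lists, the largest changes in Model vs Sham were at Six3, Gjb6, Slc6a13 and Gpr6. The highest Model library was at 0.153, 8.10, 0.508 and 0.508 CPM for these 4 genes and the lowest Sham library at 1.78, 74.2, 4.04 and 2.18.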

How the data were processed

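The authors aligned paired-end reads to the rat genome (mRatBN7.2) with STAR and counted read pairs on Ensembl genes with Salmon 1.9.0, as the study's methods state, and the submitters' processing notes also name featureCounts 2.0.1 and STAR 2.7.10a. The deposited values are raw counts per gene symbol and library, whole numbers without normalization. Use of the molecular identifiers in the adapters is not given in the sources used here, so reads may not be independent molecules, and counting limits cover counting error only. The side of the brain and the hour of sampling of these libraries are not given there either. Libraries were grouped by their treatment labels.

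The software was R 4.3.3, with limma 3.58.1, edgeR 4.0.16 and DESeq2 1.42.0, and Python 3.11.15, with matplotlib 3.10.9 for the plots. For each comparison the 6 libraries of its groups alone entered the fit, after filterByExpr (12775 to 13023 genes kept) and TMM normalization, and genes were tested by quasi-likelihood in edgeR with Benjamini-Hochberg adjustment. An SE is the absolute log2 fold change over the root of the F statistic. A DEG changed by more than 1 on the log2 scale at an adjusted p under 0.05, as in the study. CPM used TMM factors over the 12 libraries (0.949 to 1.08). The fits were tested on simulated counts in which genes vary independently, so that test does not cover members that move together between libraries. The members and gene lists were chosen with earlier results of these data known. All members may be named. Those that passed in any comparison are given with values, as are precursor and committed genes and transcription factors, and from the other lists the 4 genes with the largest change that passed in Model vs Sham. The lists cover other oligodendrocyte genes (precursor, committed, mature) and neurons, astrocytes, microglia, endothelial cells, mural cells, fibroblasts and meninges, choroid plexus, striatal neurons, and neutrophils and monocytes. Alternatives were DESeq2, RLE factors, library size alone, no filter, a minimum of 10 counts in each library, 1 model of all 12 libraries, a replicate block, no fold threshold and leaving out each library. Promoter windows came from RefSeq (GRCr8), where 8 members had none. Sequence reads were not used.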

Additional observations from a re-analysis of the deposited data

How the results depend on the processing

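Counts of member DEGs that moved by more than 1.5 times are given with their setting. In 1 fit over all 12 libraries the count was 11 in Model vs Sham (17 in the pairwise fit), 7 in rt-PA vs Sham (14) and 3 in rt-PA+Acu against rt-PA (1). DESeq2 gave 2 in rt-PA+Acu against rt-PA, and 17 and 10 in Model vs Sham and rt-PA vs Sham. Without the fold threshold the counts were 2 in rt-PA+Acu against rt-PA and 1 in rt-PA+Acu vs Sham (0 with it). Leaving out 1 library gave 14 to 25 in Model vs Sham, 8 to 22 in rt-PA vs Sham, 1 to 7 in rt-PA+Acu against rt-PA and 0 to 2 in rt-PA+Acu vs Sham, with 2 (Enpp6 and Plekhh1) without the first rt-PA+Acu library. In rt-PA vs Model it was 0 in each setting. Of the 17 DEGs in Model vs Sham 11 stayed DEGs in all 13 alternatives, and of the 14 in rt-PA vs Sham 6 did. With the replicate block the counts were 19, 19, 0, 1 and 0 in the order Model vs Sham, rt-PA vs Sham, rt-PA vs Model, rt-PA+Acu against rt-PA and rt-PA+Acu vs Sham, while 5 more members passed the adjusted p in Model vs Sham and 4 more in rt-PA vs Sham, and Qdpr and Cspg4 were lost in the last pair. Deviations from the group means correlated by -0.121 to 0.146 between libraries with the same number, and not over 0.1 in every pair of any comparison, so the numbers were treated as names. In Model vs Sham 6 of 6 libraries correlated best with their own number, a hint from the data and not from the design, and in the other comparisons 0 to 2 did. Library size alone shifted the median of all genes by 0.146 on the log2 scale in rt-PA vs Sham and left 12 member DEGs. Called members kept their direction in each setting. The median of the members turned to -0.31 in rt-PA vs Model without the second rt-PA library and to 0.12 in rt-PA+Acu vs Sham without the third rt-PA+Acu library. At least 10 counts in every library left 31 members tested in both rt-PA+Acu comparisons. Where no cause is named, the cause was not tested.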
